A study of Mus musculus with 6 samples.

Results

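Erg, Fli1, Ets1, Sox7, Sox17, Sox18, Tal1, Gata2, Mef2c and Maf are 10 transcription factors that specify or maintain the endothelial lineage. They were taken by gene symbol from a table of 13595 genes, which held all 10. Poly(A) RNA was sequenced in 6 libraries of cultured liver cells of C57BL6/J mice, selected for the endothelial surface protein CD31. The mice were 4 weeks old and either male or female, and each sex gave 3 libraries, numbered 4, 5 and 6. Every library came from cultured cells that received 100 µM indoxyl sulfate, a tryptophan metabolite that activates the aryl hydrocarbon receptor, together with 6 hours of hypoxia and nutrient deprivation. A vehicle control that the design names is not analysed here. No agent, dose or time differed between the groups, so the only comparison is that of the libraries labelled female with the ones labelled male. The labels do not say whether libraries of a group came from separate mice or cultures, and p-values then measure only the spread between these samples, which may be technical.

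Erg, Fli1 and Ets1 belong to the ETS family, whose members bind a GGAA core in most endothelial promoters and enhancers, and Erg and Fli1 keep endothelial identity in adult vessels. Sox7, Sox17 and Sox18 are the SoxF group, which acts in arterial and lymphatic specification, while Tal1 and Gata2 act together in a complex that they share with blood stem cells. Mef2c is a MADS-box factor of vessel integrity, and Maf is a large MAF factor known for promoting the sinusoidal type of liver endothelium.

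Values are normalized read counts, which are reads divided by a factor per library. Depth ran from 22303270 to 31189363 reads per library, summed over all listed genes. Male 4 stood apart from male 5 and male 6 for several genes below, and without it 9113 genes and the same number of factors, 8, were called. The labels of sex were checked with Xist, which was at 234 to 324 in the libraries labelled female and at 0.124 to 0.458 in the ones labelled male. Ddx3y, a gene of the Y chromosome, was nonetheless read at 48.5 to 57.7 under the female label and at 47.2 to 76.3 under the male label. Uty, also Y-linked, overlapped likewise, while Eif2s3y and Kdm5d were called lower under the female label but stood at 51.3% and 54.8% of the male level (limma adjusted p 5.76e-06 and 0.000129). Reads of all 4 Y-linked genes go against the female label. Whether cells or labels were mixed was not tested, and each direction below is between libraries as labelled. Pecam1, which encodes CD31, was at 391 to 423 in the libraries labelled male and 73.5 to 74.5 in the ones labelled female. In bulk RNA of this kind, fewer cells of a type and less RNA per cell cannot be told apart.

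Of the 10 factors, 8 passed the filter on low values, and 7 of these were lower and 1 higher in the libraries labelled female (limma, Benjamini-Hochberg adjusted p under 0.05). Most genes differed in this comparison, with 69.3% of the 12568 tested genes called, 34.6% of them lower and 34.6% higher. All 8 tested factors were thus called, beside 69.3% of all tested genes, and 7 of them were lower, beside 34.6%. The median log2 fold change of the 8 tested factors was -1.68, beside 0.01 for all tested genes. The libraries of the groups did not overlap for any of the 8, as was so for 74.1% of tested genes. In the authors' deposited table, 5 of the 10 factors had a false discovery rate under 0.05, all of them lower, where 25.8% of its genes did.

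**Figure D1:**
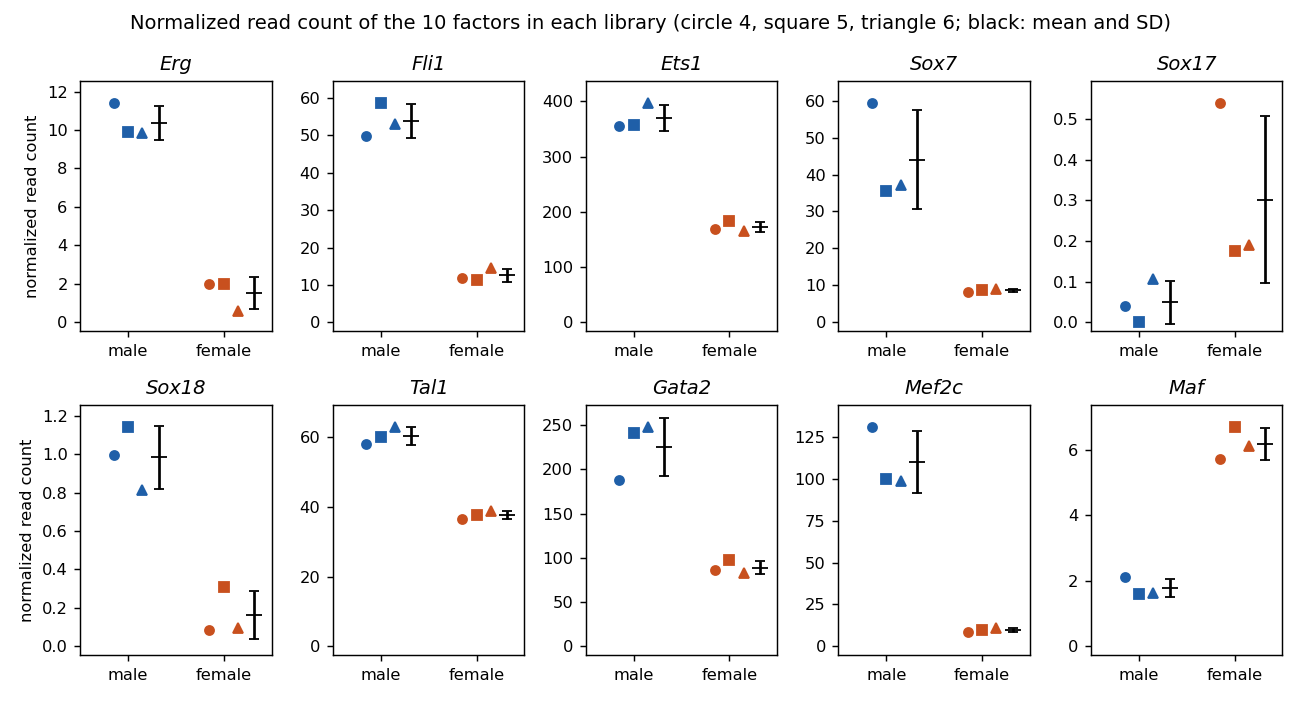
Normalized read count (vertical axis, linear, a separate scale per gene) of each of the 10 factors in the 3 libraries labelled male (blue) and 3 labelled female (orange); circles, squares and triangles are replicates 4, 5 and 6, and black bars are the mean and SD. The libraries labelled female lie below the ones labelled male for 8 factors and above them for Maf and Sox17.

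All 3 ETS factors were lower in the libraries labelled female, Erg and Fli1 with larger fitted changes than Ets1. Erg was read at 11.4, 9.88 and 9.85 in the libraries labelled male and at 1.99, 1.99 and 0.570 in the ones labelled female. Female 6 was the lowest library, with 12 reads of Erg against 48 and 45 in the other libraries labelled female, and it widens the spread of that group. The mean of 1.52 ± 0.820 (SD, n = 3) was 14.6% of the level of 10.4 ± 0.889 (SD, n = 3) in the libraries labelled male. Fitted by limma on log2(value + 1), where the change of a weak gene comes out too small, the difference was -2.23 (limma, standard error 0.24, adjusted p = 6.00e-05).

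Fli1, the closest relative of Erg among these factors, was read at 49.9, 58.6 and 52.9 in the libraries labelled male. In the ones labelled female it stood at 11.7, 11.3 and 14.6, which is 23.3% of the male level. The 3 libraries of each group lay close together, and the log2 fold change was -2.02 (limma, standard error 0.11, adjusted p = 1.23e-06).

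Ets1 is a broadly used ETS factor that is also strong in lymphocytes. It was read at 354, 357 and 397 in the libraries labelled male and at 169.8, 183 and 165 in the ones labelled female. The groups lay far apart relative to their spread, with a log2 fold change of -1.09 (limma, standard error 0.07, adjusted p = 2.88e-06). The 95% interval of its change, -1.25 to -0.93, does not meet those of Erg (-2.79 to -1.68) or Fli1 (-2.28 to -1.77).

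Ratios between 2 factors were taken within each library, on log2(value + 1), so that a factor common to the library cancels except for weak genes. The log2 ratio of Fli1 to Ets1 was lower in the libraries labelled female by -0.93, and that of Erg to Ets1 by -1.14. Both ratios separated the groups without overlap. An exact two-sided permutation test over the 20 assignments gave p = 0.1 for each, which is the smallest it allows, and 0.117 after adjustment over the 7 pairs of factors compared. The ratio of Erg to Fli1 overlapped between the groups (-0.21, exact permutation p = 0.8, adjusted 0.8), and without female 6 its difference was 0.20. With a pseudocount of 0.1 the difference for Erg to Ets1 was -1.77.

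Sox7, an early vascular factor, was the SoxF member that passed the filter on low values. It was read at 59.3, 35.5 and 37.1 in the libraries labelled male and at 8.30, 8.84 and 8.98 in the ones labelled female. Male 4 was the highest library and stood apart from male 5 and male 6, while the libraries labelled female were nearly equal. The mean in the libraries labelled female was 19.8% of that in the libraries labelled male, a log2 fold change of -2.18 (limma, standard error 0.18, adjusted p = 1.24e-05). Without male 4 it was -1.94, with a limma adjusted p of 2.91e-08.

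Sox18, mutated in inherited lymphatic disease, was near the limit of detection and below the filter. It was counted with 24, 30 and 23 reads in the libraries labelled male and with 2, 7 and 2 reads in the ones labelled female. Each library labelled male lay above each labelled female. Summed over libraries and scaled for depth, the male level was 6.03 times the female level (95% exact conditional binomial interval 3.19 to 12.6, which covers counting error only). This ratio was 11.1 without female 5, which held 7 of the 11 reads. With no filter Sox18 was called lower by limma, with an adjusted p of 0.000566, and edgeR on the recovered reads gave 0.00110.

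Sox17, an arterial SoxF factor, was near the limit of detection and below the filter. It was counted with 1, 0 and 3 reads in the libraries labelled male and with 13, 4 and 4 reads in the ones labelled female, so it lay opposite to the other SoxF factors. The summed ratio was 6.09 (95% exact interval 2.06 to 24.4, counting error only), and 3.60 without female 4, which held 13 of the 21 reads. Male 6 held 3 of the 4 reads of its group, and the ratio was 15.6 without it. With no filter its limma adjusted p was 0.0582, and DESeq2 gave 0.0438. The exact permutation test gave p = 0.1, its smallest value. In GENCODE M21, 16.8% of the exonic bases of Sox17 are overlapped by Gm37587 on the opposite strand, and whether reads were counted by strand is not given in the sources used here.

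Within the SoxF group, the log2 ratio of Sox17 to Sox18 was higher in the libraries labelled female by 1.07 and that of Sox7 to Sox17 lower by -2.48. Each separated the groups (exact permutation p = 0.1, adjusted 0.117). With a pseudocount of 0.1 these differences were 3.52 and -3.66, so their size is not fixed by these few reads. The ratio of Sox7 to Sox18 differed by -1.40 on the log2(value + 1) scale but by -0.15 with a pseudocount of 0.1, where the groups overlapped (exact permutation p = 0.7). An unequal change of Sox7 and Sox18 is thus not shown at this depth.

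Tal1 had the smallest change of the tested factors, and its partner Gata2 changed by more. Tal1 was read at 58.2, 60.1 and 63.1 in the libraries labelled male and at 36.4, 37.7 and 38.8 in the ones labelled female. The libraries of each group lay close together, and the female level was 62.3% of the male level (log2 fold change -0.67, limma standard error 0.07, adjusted p = 3.45e-05). Gata2 was read at 188, 241 and 248 in the libraries labelled male, of which male 4 was the lowest. It stood at 86.3, 97.4 and 83.0 in the ones labelled female, a log2 fold change of -1.33 (limma, standard error 0.11, adjusted p = 1.46e-05). The log2 ratio of Tal1 to Gata2 was higher in the libraries labelled female by 0.66, again without overlap (exact permutation p = 0.1, adjusted 0.117).

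RefSeq promoter sequence was matched for Erg, Tal1, Gata2 and Mef2c. In the 250 bases before the start that lies furthest upstream for each gene, matches were searched on both strands for 7 motifs. They were the ETS sites AGGAAG (a general form) with its more selective variant CGGAAG, the GATA site AGATAA, and the E-box CAGATG, which Tal1 complexes bind. The others were the SOX site AACAAT, the hypoxia response core ACGTG, and a core of xenobiotic and hypoxia response elements spelled GCGTG. The ETS forms differ in their first letter, as do both response cores, so the members of either pair cannot match at the same base of the same strand. The windows of Erg and Gata2 held none of the 7. The Tal1 and Mef2c windows, shown because they hold the matches that were found, lie at chr4:115056176-115056425 (plus strand) and chr13:83503784-83504033 (plus strand) of GRCm38.p6. Capitals mark an AGATAA match read on the minus strand in Tal1 and a CGGAAG match read on the minus strand in Mef2c.
Tal1: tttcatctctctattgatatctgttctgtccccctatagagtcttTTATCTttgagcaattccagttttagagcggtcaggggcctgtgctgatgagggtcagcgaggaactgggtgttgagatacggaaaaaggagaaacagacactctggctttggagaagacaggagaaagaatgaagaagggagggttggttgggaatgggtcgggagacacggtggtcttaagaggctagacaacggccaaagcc
Mef2c: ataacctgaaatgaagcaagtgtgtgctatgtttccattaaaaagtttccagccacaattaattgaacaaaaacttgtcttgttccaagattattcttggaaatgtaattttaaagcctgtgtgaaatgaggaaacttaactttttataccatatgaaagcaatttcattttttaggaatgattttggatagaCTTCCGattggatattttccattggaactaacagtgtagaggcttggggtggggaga
Of all 32851 promoter windows of this length, 9.99% hold the GATA site and 13.6% the selective ETS site, while 29.5% hold the general ETS site. The E-box is in 14.4%, the SOX site in 9.42%, the hypoxia core in 16.6% and the xenobiotic core in 28.2%. A match describes these letters only.

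Mef2c had the largest change of the 8 tested factors. It was read at 131, 99.9 and 98.9 in the libraries labelled male and at 8.47, 9.77 and 10.7 in the ones labelled female. Male 4 was the highest, and each library labelled male stood far above all of the ones labelled female. The mean was 11.4 times higher in the libraries labelled male, a log2 fold change of -3.37 (limma, standard error 0.13, adjusted p = 1.98e-07). Of the 12568 tested genes, 143 had a larger absolute change.

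Maf was the tested factor that rose. It was read at 2.11, 1.60 and 1.62 in the libraries labelled male and at 5.73, 6.72 and 6.13 in the ones labelled female. Both groups were tight and low, with 42 to 51 reads and 129 to 152 reads per library. The mean was 3.48 times higher in the libraries labelled female, a log2 fold change of 1.37 (limma, standard error 0.12, adjusted p = 1.88e-05). The authors' deposited table gives Maf a fold change of 3.47 with a false discovery rate of 0.255. In GENCODE M21, Gm15655 overlaps 5.34% of the exonic bases of Maf on the opposite strand.

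**Figure D2:**
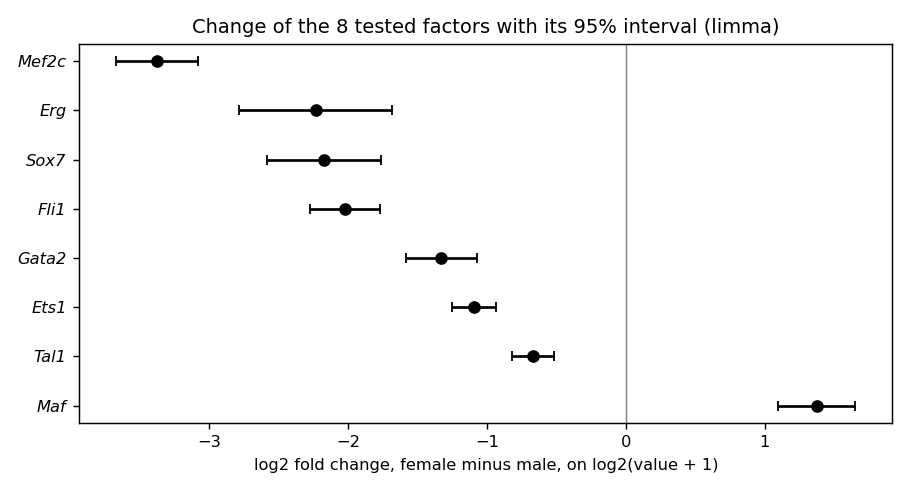
Log2 fold change of the 8 tested factors, female minus male, on the log2(value + 1) scale (horizontal axis), with the 95% interval from limma as bars. Mef2c lies furthest below 0 at -3.37, Tal1 nearest to it at -0.67, and Maf above it at 1.37.

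The authors' deposited table has the same directions for all 10 factors. It calls Mef2c (fold change -11.4, false discovery rate 1.52e-08), Sox7 (-5.05), Fli1 (-4.29), Gata2 (-2.54) and Ets1 (-2.14) as lower. It does not call Erg, at a fold change of -6.82 and a false discovery rate of 0.0563, or Tal1, at -1.61 and 0.143. Erg, Tal1 and Maf are thus the 3 factors called by limma and not in the authors' deposited table.

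Divided by the length of the longest coding transcript in GENCODE M21, the factors spanned several orders of level. In the libraries labelled male, Ets1 was highest at 72.7 ± 4.66 per kb (SD, n = 3), followed by Gata2 at 63.3 ± 9.19 per kb. Their ranges were apart by little, at 69.8 to 78.1 and 52.7 to 69.6 per kb. Mef2c, Fli1, Tal1 and Sox7 formed a middle range from 17.5 down to 13.3 per kb. Within it, Mef2c and Fli1 overlapped and so did Tal1 and Sox7. Erg stood lower at 3.19 per kb, and Sox18 (0.607), Maf (0.280) and Sox17 (0.0152) were lowest.

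In the libraries labelled female the order of these levels changed. Ets1 (34.0 per kb) and Gata2 (24.9 per kb) remained at the top, and Tal1 came next at 8.94 per kb. Ranked by mean, Mef2c moved from place 3 to place 6, at 1.54 per kb, behind Fli1 (3.78) and Sox7 (2.64). Maf, at 0.973 per kb, lay above Erg, at 0.467 per kb, and their libraries did not overlap. Erg overlapped with Sox18, and Sox18 with Sox17.

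**Figure D3:**
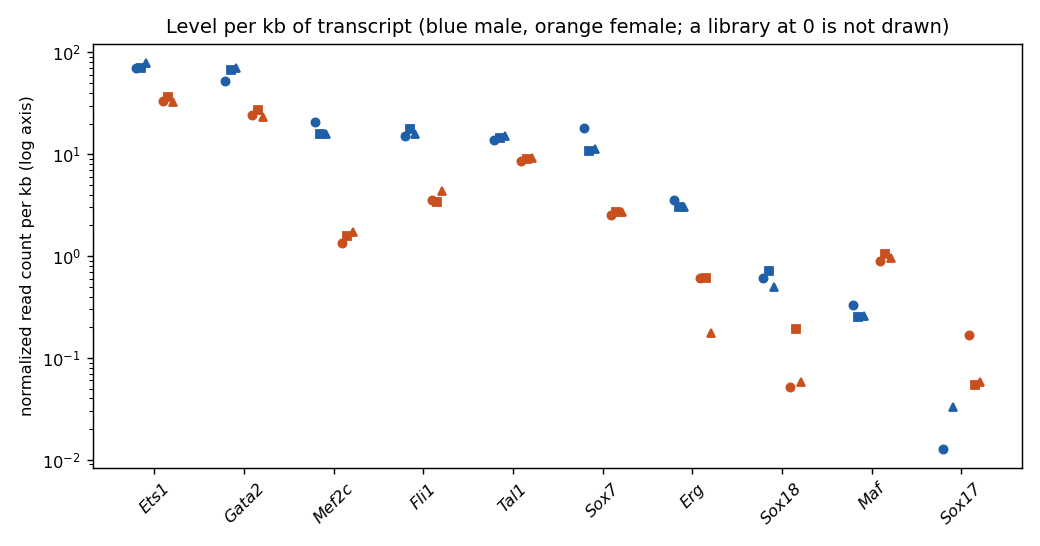
Normalized read count per kb of the longest coding transcript (vertical log axis) for each factor, ordered by its level in the libraries labelled male (blue) beside the ones labelled female (orange); circles, squares and triangles are replicates 4, 5 and 6. Mef2c drops from 17.5 to 1.54 per kb, whereas Maf goes from 0.280 to 0.973 per kb; the male library of Sox17 at 0 is not drawn.

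The factors were next set against endothelial surface genes read in the same library, as a description with no test. Pecam1 fell to 18.2% and Cdh5, which encodes VE-cadherin, to 41.9% of the male level (limma adjusted p 2.04e-08 and 4.14e-07). Mef2c was 27.1% ± 4.71 of Pecam1 in the libraries labelled male and 13.1% ± 1.45 in the ones labelled female (SD, n = 3), so it stood lower even against this gene. Erg and Sox7 overlapped between the groups relative to Pecam1, at 2.56% against 2.06% for Erg and 10.8% against 11.8% for Sox7. Fli1, Ets1, Tal1, Gata2 and Maf were higher relative to Pecam1 in every library labelled female. Ets1 went from 90.9% to 234% of Pecam1 and Tal1 from 14.9% to 50.9%.

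Against Cdh5, which fell less, the picture differed for several factors. Mef2c (11.9% against 2.50%), Erg (1.12% against 0.388%), Sox7 (4.76% against 2.25%) and Fli1 (5.83% against 3.25%) were lower in each library labelled female than in any labelled male. Gata2 overlapped, at 24.5% against 22.9%. Ets1 (40.0% against 44.6%), Tal1 (6.54% against 9.73%) and Maf (0.193% against 1.60%) were higher. The direction relative to an endothelial gene was therefore the same with both genes for Mef2c, Ets1, Tal1 and Maf, and turned between them for Fli1.

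**Figure D4:**
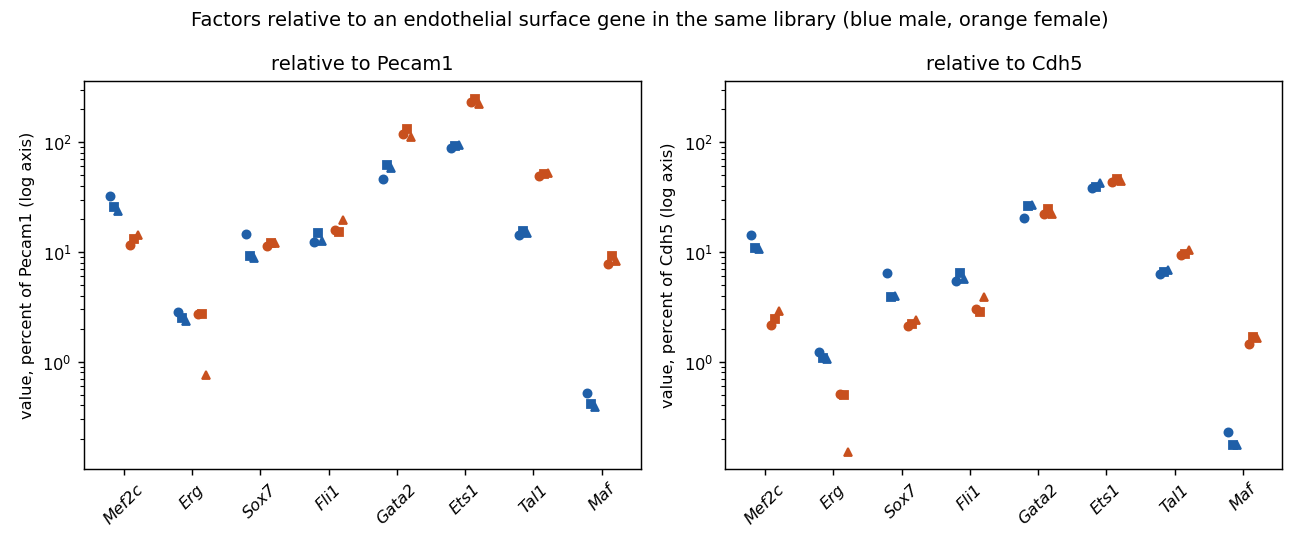
Value of each tested factor as a percent of Pecam1 (left) or Cdh5 (right) in the same library, on a log axis; blue is male, orange is female, and circles, squares and triangles are replicates 4, 5 and 6. Mef2c is lower and Maf, Tal1 and Ets1 are higher in the libraries labelled female in both panels, while Fli1 is higher relative to Pecam1 and lower relative to Cdh5.

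Relatives and partners of these factors were listed by family. Of 70 such genes, 60 were tested, 38 were called lower and 13 higher in the libraries labelled female, with a median log2 fold change of -0.51. The counts of each list below stand beside a background of 69.3% of tested genes called, 34.6% lower and 34.6% higher, and for several lists the share called is close to it. Among 14 tested ETS relatives, 8 fell and 2 rose (median -0.33), a share called near that background. The number higher was 4 without male 4 and 1 without male 5, male 6, female 5 or female 6, while 8 were lower in each of those fits. Ets2, the sister gene of Ets1, had the largest change, from 418 to 554 in the libraries labelled male to 47.0 to 50.2 in the ones labelled female (log2 fold change -3.31, limma adjusted p 6.76e-08). Etv1 (-1.14) and Elf1 (-1.03) also fell. The fitted changes of Erg and Fli1 were -2.23 and -2.02.

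All 10 tested partners of the Tal1 complex were called lower, with a median of -0.81. This count was 9 of 10 with quantile normalization and 8 of 10 without female 4 or without female 5. Fewer partners passed the filter without male 4, male 5 or male 6, where 8, 8 and 7 of 8 were called with medians of -0.42, -0.47 and -0.43, and all 8 were called when at least 10 reads were required in every library (median -0.42). The largest changes were those of Lyl1 (-3.89), the closest relative of Tal1, Lmo2 (-2.20), the bridging protein of the complex, and Cbfa2t3 (-1.65), a corepressor within it. Lyl1 went from 13.7, 19.0 and 19.7 in the libraries labelled male to 0.291, 0.265 and 0.142 in the ones labelled female. Lyl1 and Cbfa2t3 passed the filter only through the libraries labelled male, so they could only come out lower. Both are missing from the fits above that tested 8 partners. Tal1 itself had a fitted change of -0.67.

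Of the 5 tested GATA factors and their FOG cofactors, 4 were called higher and 1 lower (median 0.37). With DESeq2, which tests 6 of them, the calls were again 4 higher and 1 lower, and the median was 0.76. Gata4, which drives the sinusoidal endothelial programme in mouse liver, rose from 3.67 to 3.85 in the libraries labelled male to 31.2 to 32.9 in the ones labelled female (log2 fold change 2.80, limma adjusted p 6.76e-08). Which cells carried Gata4 was not tested. Gata3 also rose (1.24), whereas Gata6, like Gata2, fell (-1.36).

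Among 6 tested SOX genes outside the SoxF group, 3 fell and 1 rose (median -0.77). With no filter, edgeR or DESeq2, which test 7 of them, 3 were again lower but the median was 0.01, -0.01 and -0.01, and 2 were higher with no filter, with edgeR or without male 4. Sox9 (-2.39) and Sox5 (-1.94), factors of cartilage and other mesenchyme, fell, and Sox11 (1.61) rose. Of 6 tested MEF2 relatives and class II deacetylases, which bind and repress MEF2 factors, 5 fell and 0 rose (median -0.59). Hdac5 (-1.56), Mef2d (-0.82) and Mef2a (-0.67) had the largest changes, all smaller than that of Mef2c. The count of 5 was 3 without female 4. Of 6 tested MAF and BACH genes, 3 rose and 2 fell (median 0.37), with Mafk (1.14) and Bach2 (1.13) among the higher ones.

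Of 13 other vascular factors tested, 9 fell and 3 rose (median -1.31). Bcl6b (-2.88), Meox2 (-2.69) and Mecom (-2.46) fell most, and each is known in endothelium. Meox2 passed the filter only through the libraries labelled male and could only come out lower. Foxf1, among the higher ones, passed only through the libraries labelled female. When at least 10 reads were required in every library, 8 of 11 were lower and 2 higher (median -1.31).

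**Figure D5:**
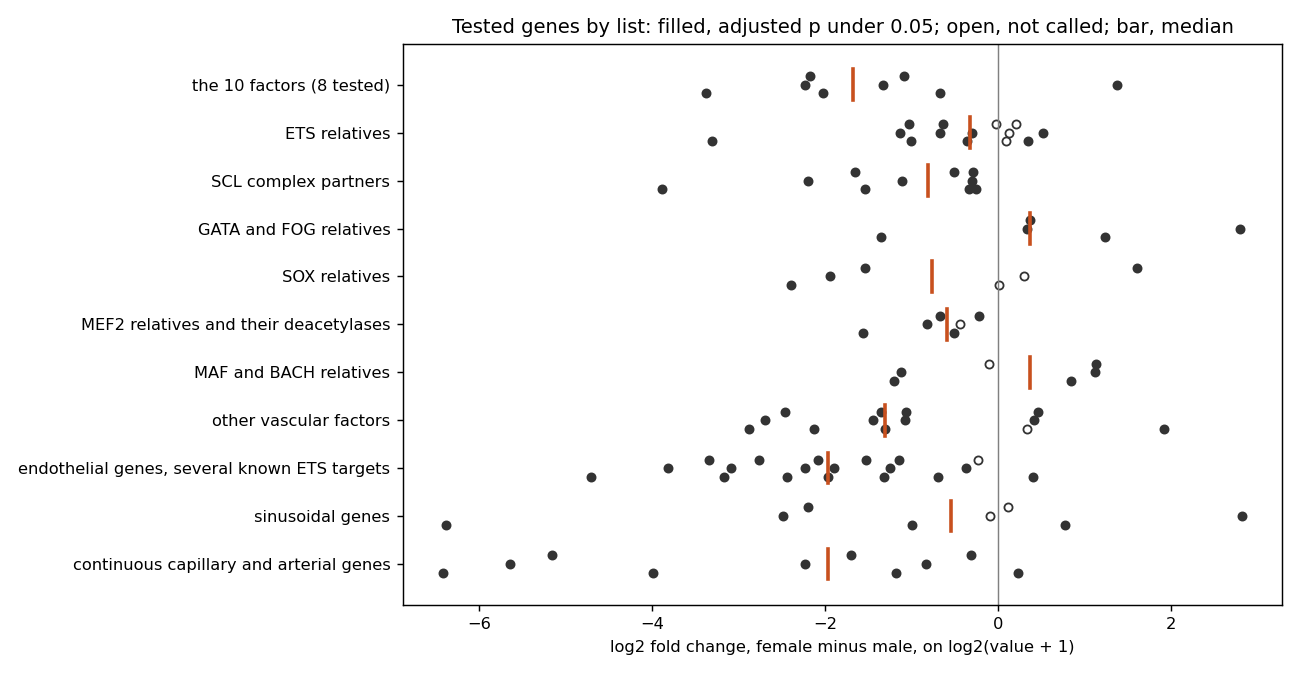
Log2 fold change of each tested gene, female minus male, on the log2(value + 1) scale (horizontal axis), by list; filled points have a limma adjusted p under 0.05, open points do not, and the orange bar is the median of the list. The 10 tested partners of the Tal1 complex all lie below 0, while GATA and FOG relatives (median 0.37) and MAF and BACH relatives (median 0.37) lie mostly above it.

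Endothelial genes that such factors are known to control were counted beside them. Of 19 tested genes of the endothelial surface and secretome, several of them ERG or FLI1 targets, 17 fell and 1 rose (median -1.97). Eng was the gene that rose (log2 fold change 0.40, limma adjusted p 0.000734). Kdr, low at 2.34 to 3.96 over all libraries, was not called, and Emcn fell only to 77.0% of the male level. Vwf, the clotting protein of endothelial granules, went from 34.9 to 40.3 in the libraries labelled male to 0.374 to 0.570 in the ones labelled female (log2 fold change -4.71, limma adjusted p 2.04e-08). Egfl7 (-3.81) and Icam2 (-3.34) followed. Vwf, Nos3 and Robo4 passed the filter only through the libraries labelled male, so they could only come out lower. When at least 10 reads were required in every library, 13 of 15 were lower. Without male 4, male 5 or male 6 it was 14 of 16 in each. Genes of continuous capillaries and arteries were 9 lower and 1 higher of 10 tested (median -1.97), with 0 higher without male 5, male 6, female 4 or female 5. They were led by Ly6c1 (-6.42), Gja4 (-5.64) and Ly6a (-5.16). The Ly6 genes resemble one another closely in sequence, and how reads were divided among them is not given in the sources used here.

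Sinusoidal genes belong to the programme in which Maf and Gata4, both higher in the libraries labelled female, are known to act. Of 8 tested, 4 were called lower and 2 higher, with a median of -0.55 that depended on which genes and libraries entered. Without male 4 there were 3 lower and 3 higher (median 0.10), and without male 5 or male 6 there were 2 and 2 (median -0.03 in both). Without female 4, female 5 or female 6 there were 4 lower and 1 higher (medians -1.02, -0.97 and -1.01). The median was -0.08 with no filter, -0.37 with edgeR or DESeq2 and -0.97 with a pseudocount of 0.1. When at least 10 reads were required in every library, 2 of 6 were lower and 1 higher (median -0.11). The list as a whole thus shows no fixed direction. Lyve1 (-6.39) and Stab1 (-2.49) fell, and Wnt2 (2.83), a signal of central sinusoidal endothelium, rose. Lyve1 was read at 470 to 513 in the libraries labelled male and Stab1 at 14.2 to 18.5, so the list was not low throughout. Of the 6 genes below the filter, Mrc1 had 18 to 29 reads and Oit3 6 to 24 reads per library. Others were at or near 0 in both groups, and 3 of them are given here after their values were seen. Stab2 was between 0 and 0.415 in the 6 libraries, Fcgr2b between 0 and 0.0415, and Clec4g at 0 in all but female 6.

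Markers of other cell types moved with the same comparison. Smooth muscle markers summed to 402 to 534 in the libraries labelled male and 2729 to 3458 in the ones labelled female, with 5 of 8 tested called higher and 2 lower. Myh11, Acta2 and Tagln led them (log2 fold changes 5.54, 4.57 and 4.43). Rgs5 (-2.17) and Smtn (-1.24) were the lower ones, and Notch3 (0.08) was not called. Fibroblast and stellate markers summed to 2771 to 3490 against 974 to 990.1, with 7 of 9 lower and 2 higher. Pdgfrb (-3.13), Col3a1 (-2.47), the most abundant of the list, and Lum (-2.11) had the largest changes. Hand2 (1.65) and Des (0.70) were the higher ones. Lum passed the filter only through the libraries labelled male, and Hand2 only through the ones labelled female. Reln, below the filter, had 5 to 8 reads in the libraries labelled male and 17 to 26 in the ones labelled female. Of 7 tested mesothelial and cholangiocyte markers, summing to 1654 to 2505 against 879.5 to 965, 4 were higher, among them Msln (4.03) and Wt1 (3.64), and 3 lower. The lower ones were Sox9 (-2.39), Krt19 (-1.99) and Spp1 (-1.82), the most abundant of the list, at 929.9 to 1608 against 342 to 424.

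Tal1, Gata2, Mef2c and Maf are also used by blood lineages. The 4 mast cell and megakaryocyte markers analysed, of 11 listed, summed to 69.5 to 83.8 against 3.04 to 4.32, with all 3 tested called lower, Kit (-4.78), Itga2b (-3.59) and Pf4 (-1.48). In the libraries labelled male Kit was read at 36.3 to 40.0 and Itga2b at 27.0 to 36.5. Mcpt4, a mast cell protease, was between 0 and 0.353. Macrophage markers summed to 12.0 to 14.8 against 17.4 to 20.9, with 3 of 4 tested higher and 1 lower. Fcer1g, a receptor chain of myeloid and mast cells, had 1, 2 and 0 reads in the libraries labelled male and 64, 46 and 46 in the ones labelled female (log2 fold change 1.66, limma adjusted p 6.77e-06). Csf1r (0.56) and Cd68 (0.48), the most abundant of the list, were also called higher, and Cd14 (-0.84) lower. Tyrobp was at 0 in all 6 libraries, and Ptprc had 0 reads in each library labelled male and 8, 5 and 3 in the ones labelled female. Hepatocyte markers summed to 1.80 to 2.36 against 0.354 to 0.415 and none was tested. The 10 lymphocyte markers were not analysed here. The part of these cell types in the change of the 10 factors was not tested.

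The genes with profiles most like those of the 3 factors with the largest changes were found by Euclidean distance between centred log2(value + 1) values over the 6 libraries. Nearest to Mef2c were Elmo1 (distance 0.212), Pla2g7 (0.246) and Cp (0.292). Nearest to Erg were Susd1 (0.499), Cx3cl1 (0.586) and Plod1 (0.593), at larger distances. Nearest to Sox7 were Bend5 (0.185), Stc1 (0.216) and Robo1 (0.245), each also highest in male 4.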

How the data were processed

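Poly(A) RNA libraries were sequenced in 3 samples labelled male and 3 labelled female. The submitters' processing notes name Bowtie2, RSEM, edgeR and mm39, without their roles. Each library has 1 column of deposited signal, its normalized read counts. In all 6, 100% of values were whole multiples (tolerance 0.01) of the smallest value above 0, as whole reads divided by 1 factor per library would be. Per the file headers, a further score column gives a signed fold change. Another pair, deposited as p-value columns, gives p and a false discovery rate from the authors' own comparison. 0 columns of values were left without a sample.

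limma 3.58.1 (R 4.3.3, eBayes with trend) was run on log2(value + 1) for genes reaching a value of 1 in 3 or more libraries, two-sided, adjusted by Benjamini-Hochberg over all 12568 tested genes. A gene that reached this value only in the libraries of 1 group could come out only in the direction of that group. Vwf, Lyl1, Kit, Wt1, Wnt2 and Fcer1g are among such genes. Ratios between factors were tested by exact permutation (scipy 1.17.1). Alternatives were median-ratio (RLE) factors, quantile normalization, other filters, a pseudocount of 0.1, a replicate block, edgeR 4.0.16 and DESeq2 1.42.0 on recovered reads, and each library left out. The fits were tested on simulated data.

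The factors and lists were chosen with earlier results of these data known. Named genes are the 10 factors, up to 3 called genes with the largest absolute change per list, the most abundant marker of a cell type, and the 3 nearest profiles of each of 3 factors. A gene that this rule would name is not reported here. Markers at or near 0, Krt19, Mrc1 and Oit3 were named outside that rule, after their values were seen. So were Nos3, Robo4, Eng, Kdr, Emcn, Foxf1, Hand2, Des, Reln, Rgs5, Smtn and Notch3. Promoters and lengths use GRCm38, so no gene coordinates of mm39 are given.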

Additional observations from a re-analysis of the deposited data

How the results depend on the processing

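The log2 fold changes of the 8 tested factors were recomputed 112 times, under 8 alternatives with all libraries and 6 fits that each left out 1 library, and all 112 kept their direction and call. The number of factors called was 8 in each fit that left out a library and 8 to 10 otherwise: 9 with no filter, 9 with edgeR and 10 with DESeq2, each of which also tested Sox18. The number of tested genes called ran from 7373 to 9113. Libraries with the same replicate number did not deviate together (correlations of deviations -0.09, -0.03 and -0.17 for replicates 4, 5 and 6), and with the replicate block 8314 genes and 8 factors were called. Erg ranged most among the factors, from -2.87 with a pseudocount of 0.1 to -1.92 without female 6. Partners of the Tal1 complex had 7 to 10 calls over these settings, all lower. Of the lists, sinusoidal genes had 3 calls in place of 6 when at least 10 reads were required in every library, which left 6 genes to test, and MEF2 relatives had 3 to 5 across fits that left out a library. The difference, female minus male, in the log2 ratio of Erg to Fli1 ran from -0.43 to 0.20 across those fits, and the cause was not tested. With a pseudocount of 0.1 the difference in the log2 ratio of Erg to Fli1 was -0.77, of Erg to Ets1 -1.77, of Sox7 to Sox17 -3.66, of Sox7 to Sox18 -0.15 and of Sox17 to Sox18 3.52. Depth limits Sox17 and Sox18, since 3 reads correspond to a normalized read count of 0.106 to 0.142.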
